A study of Mus musculus with 4 samples.

Results

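The proteasome genes of the mouse were examined in whole kidney of wild-type (WT) mice and of littermates without a functional Usp2 gene (Usp2-KO). The members are the genes whose array symbol begins with Psma, Psmb, Psmc, Psmd, Psme, Psmf or Psmg followed by a digit. There were 50 such genes among the 19934 genes tested. By known function 48 of them are parts, assembly factors, activators or inhibitors of the proteasome. The others share only the name: Psmc3ip is a protein of meiotic recombination that binds Psmc3, and Psme3ip1 binds Psme3. All 50 were tested, and no filter on signal was applied. Where a gene had several rows on the array, the row of highest mean over all arrays stood for it.

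Usp2 encodes a ubiquitin-specific protease, which takes ubiquitin off other proteins. Both groups were C57BL6/N males aged 12 weeks, killed at Zeitgeber time 12, the time of day at which Usp2 expression peaks per the labels. Each genotype is represented by 2 pools of RNA from 3 mice, which came from 6 pairs of littermates, and the littermates of a WT pool made up the Usp2-KO pool of the same number. Values are log2 expression from 4 arrays, 1 per pool, so the spread between arrays is that between pools and not between animals. The labels do not say which exons of Usp2 were removed. A change in the mix of kidney cells cannot be told apart from a change of RNA per cell in whole tissue.

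The genotype labels were checked first. Usp2 stood at 11.63 and 11.71 in the WT pools and at 7.65 and 7.60 in the Usp2-KO pools, 16.5-fold lower (limma adjusted p = 2.8e-08). It was the 1 gene of 19934 that passed an adjusted p under 0.05, which is 0.00502% of the genes tested. Array medians lay between 7.44 and 7.46. Kidney markers were Umod, Slc34a1, Lrp2, Slc12a3, Aqp2, Atp6v1g3, Nphs1 and Kap. The log2 of their summed linear levels was between 15.96 and 15.98 in every pool. The most abundant of them weigh most in that sum. Of the 8, 5 were higher in Usp2-KO kidney and 3 lower. Both Usp2-KO pools lay above both WT pools in 4 (50%) and below in 1 (12.5%), against 19.8% and 19.1% of all genes. At an unadjusted p under 0.05 by limma, 2 were higher and 0 lower, against 5.22% and 3.88% of all genes. These were Atp6v1g3, by 0.25, and Nphs1, by 0.19, or 0.16 as the mean of its rows. The files hold no detection calls, so no member can be called present or absent.

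The proteasome is the main protease of the cytosol and nucleus and degrades proteins that carry chains of ubiquitin. Its core particle is a barrel of outer alpha rings and inner beta rings, and the cutting sites face the inside. The regulatory particle caps the barrel. Its base holds a ring of ATPases that unfold the substrate and thread it through the alpha ring, and its lid takes off the ubiquitin chain. Interferon induces alternative beta subunits, which give the immunoproteasome and alter the peptides offered on MHC class I. Ubiquitin-specific proteases such as Usp2 act upstream of this machine, on the ubiquitin of its potential substrates.

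Transcription of proteasome subunits is known to be raised as a set by Nfe2l1, a membrane-bound factor that is freed when proteasome capacity is short and binds antioxidant response elements. The stretches before the start sites of 5 members are shown because the results below turn on these genes: Psmc6, Psmd12 and Psmd14, which had the largest differences among the 17 members of the regulatory particle, Psmb5, a catalytic subunit that hardly differed, and Psmb8, its inducible counterpart. They come from RefSeq on GRCm38.p6 and read 5′ to 3′ along the gene, ending at the last base before the start site used. Capitals mark matches to TGACNNNGC, the core of the antioxidant response element, or to its reverse complement GCNNNGTCA. For Psmc6 and Psmd12 250 bases are shown, and for Psmd14, Psmb5 and Psmb8 only the last 120.

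Psmc6, chr14:45329574-45329823, plus strand: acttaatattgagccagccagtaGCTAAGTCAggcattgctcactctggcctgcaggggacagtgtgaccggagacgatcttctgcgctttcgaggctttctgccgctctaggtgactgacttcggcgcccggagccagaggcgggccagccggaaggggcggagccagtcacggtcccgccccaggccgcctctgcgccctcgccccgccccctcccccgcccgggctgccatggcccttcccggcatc
Psmd12, chr11:107479278-107479527, plus strand: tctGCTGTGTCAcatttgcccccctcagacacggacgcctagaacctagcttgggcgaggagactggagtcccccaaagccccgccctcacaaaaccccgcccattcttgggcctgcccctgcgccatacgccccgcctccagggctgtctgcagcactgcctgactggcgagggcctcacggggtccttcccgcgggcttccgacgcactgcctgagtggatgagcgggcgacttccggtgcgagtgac
Psmd14, chr2:61711574-61711693, plus strand: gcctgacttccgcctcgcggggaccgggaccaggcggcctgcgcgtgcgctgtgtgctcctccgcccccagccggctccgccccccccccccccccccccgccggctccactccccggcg
Psmb5, chr14:54617996-54618115, minus strand: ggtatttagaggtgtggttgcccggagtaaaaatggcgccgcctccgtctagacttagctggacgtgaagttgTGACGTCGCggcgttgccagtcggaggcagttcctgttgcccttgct
Psmb8, chr17:34198075-34198194, plus strand: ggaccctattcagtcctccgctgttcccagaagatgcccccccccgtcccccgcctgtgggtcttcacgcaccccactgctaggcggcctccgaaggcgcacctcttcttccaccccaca

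Psmc6 and Psmd12 each held 1 match, 227 and 247 bases before the start, and Psmb5 held 1 match 47 bases before it. Psmd14 and Psmb8 held none in the 250 bases before the start, of which fewer are shown. Over all members with a sequence, 5 of 42 genes held this motif in the 250 bases before a start site, or 11.9%. Over all 27025 genes with a sequence the share was 11.5%. The others with a match were Psmb6, at 9 bases, and Psmd9, at 31 bases. No match was found in the 7 alpha ring genes, in the 4 inducible or tissue-specific beta genes or in the 5 genes of activators and inhibitor that had a sequence. The CCAAT box (CCAAT or ATTGG) was found in 16 of 42 members, 38.1%, against 37.5% of all genes, and in 5 of 7 alpha ring genes. The E-box CACGTG, which clock factors bind, was found in 5 of 42 members (Psma4, Psmb10, Psmd9, Psme3 and Psme3ip1), 11.9% against 6.86% of all genes. The core of interferon response elements, GAAA and GAAA with any 2 bases between them, or TTTC and TTTC likewise on the other strand, was found in Psmb3, Psmd4 and Psmd9, 7.14% against 3.46%, and in this window in none of Psmb8, Psmb9 or Psmb10. These are matches of letters, not sites shown to be bound.

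No member passed the adjusted threshold of 0.05 in the comparison of the genotypes by limma. The smallest adjusted p was 0.286, that of Psmc6. At an unadjusted p under 0.05, 6 of the 50 members were higher in Usp2-KO kidney and 0 were lower, against 5.22% of all genes higher and 3.88% lower. These 6, in the order of p, were Psmc6, Psmd14, Psmd12, Psmc2, Psma3 and Psmd7, 5 of them subunits of the regulatory particle. With the littermate pools as a block it was 5, without Psmd7. The count depended on single pools. It fell when WT pool 1, WT pool 2 or Usp2-KO pool 2 was left out, and so did the share of all genes. Such a fit has only 1 array in a group. Without any 1 pool the differences were 0.28 to 0.45 for Psmc6, 0.1945 to 0.2205 for Psmd14 and 0.157 to 0.241 for Psmd12. They were 0.13 to 0.242 for Psmc2, 0.1075 to 0.3585 for Psma3 and 0.138 to 0.186 for Psmd7. With the littermate pools as a block, Psmc6 was the 1 member that passed (limma adjusted p = 0.0318), where 153 genes passed, 0.768% of those tested, and 0.512% passed with higher values in Usp2-KO kidney. That fit has a prior of 90.6 degrees of freedom beside 1 of its own, which gives almost 1 common spread to every gene.

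The family differed little and mostly toward higher values. Differences (Usp2-KO minus WT, log2) ran from -0.13 for Psmb11 to 0.36 for Psmc6, with a median of 0.04 against -0.01 for all genes, and of 0.08 without Usp2-KO pool 2. The difference was above 0 in 34 of 50 members, or 68%, against 47.5% of all genes. Both Usp2-KO pools lay above both WT pools in 22 members, 44%, where 19.8% of all genes did so, and below in 5, 10%, where 19.1% did so. The groups were thus apart in 27 members, where 38.9% of all genes were. Among the 9966 genes above the median level, which include 45 members, 26.5% lay above and 13.2% below in this sense, and of the 45 members 22 and 3. There the difference was above 0 in 56.2% of the genes and in 32 of the 45 members, and 6.43% of the genes and 6 of the members were higher at an unadjusted p under 0.05. In both littermate pairs the difference was above 0 in 24 members (26.1% of all genes) and below 0 in 5 (25.3%). Psmc6 was the 1 member that differed by more than 0.25 in either direction, and 46 members lay between the 5th and the 95th percentile of all genes, -0.17 and 0.19. The standard error of a member's difference was between 0.07 and 0.11.

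**Figure D1:**
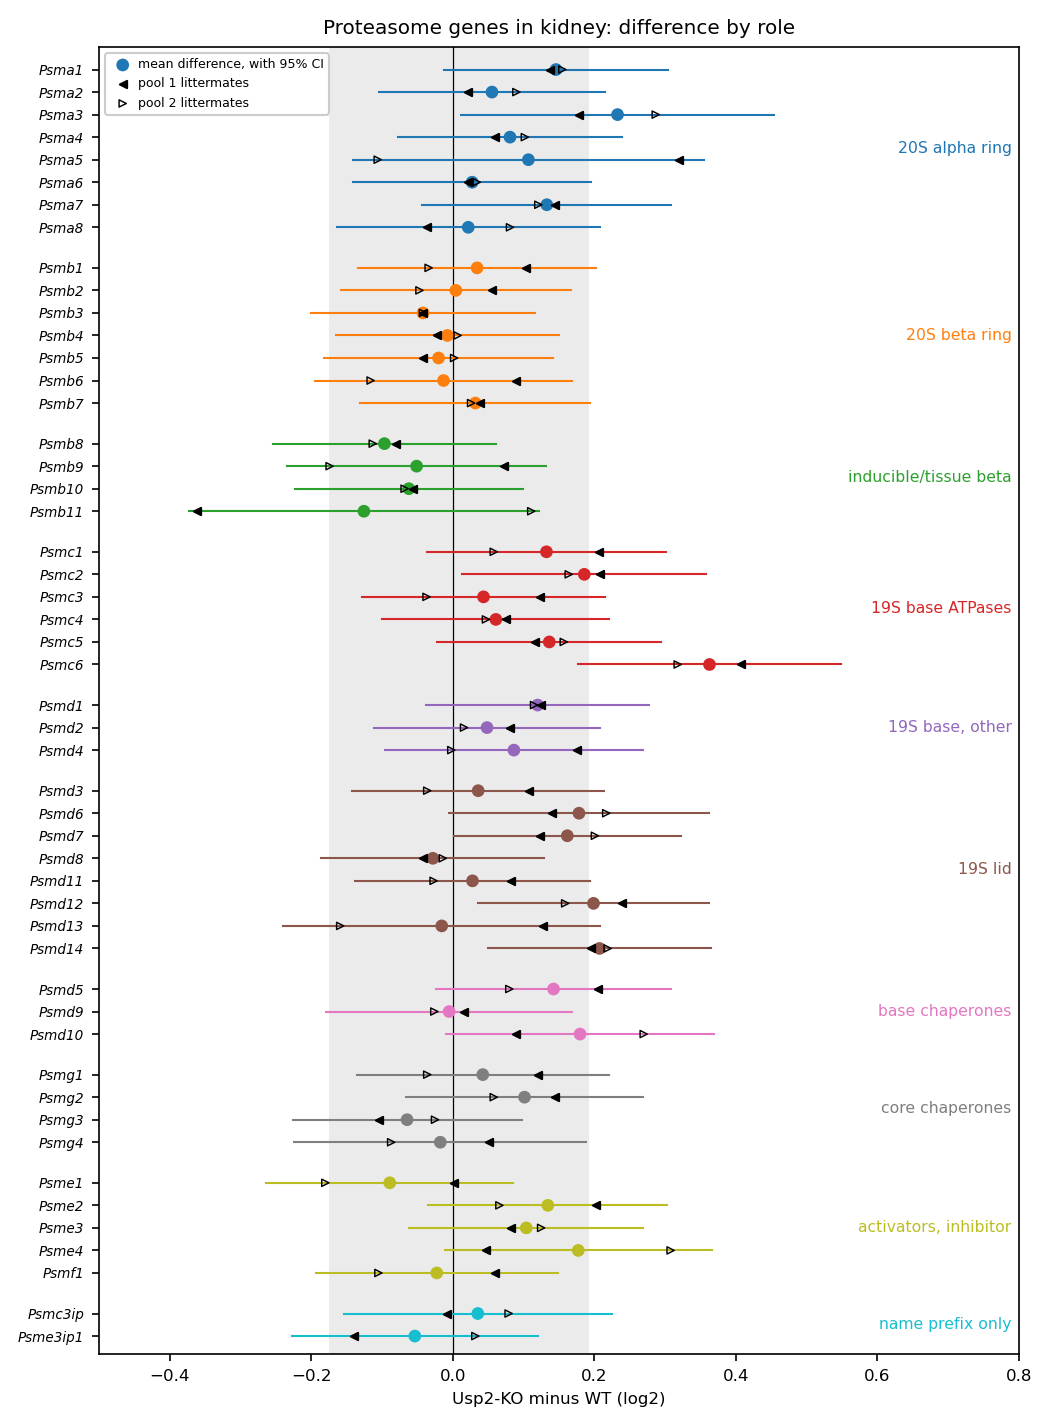
Difference between Usp2-KO and WT kidney on the log2 scale for the 50 genes, grouped by role (20S is the core particle, 19S the regulatory particle). Coloured points are mean differences with 95% confidence intervals from limma, triangles are the littermate comparisons of pool 1 and pool 2, and the grey band spans the 5th to 95th percentile of all genes. The ATPases lie to the right of 0, with Psmc6 at 0.36, the beta ring lies around 0 and the inducible beta subunits lie to its left.

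The ATPases of the base, Psmc1 to Psmc6, form the ring that unfolds substrates. All 6 had differences above 0, against 47.5% of all genes and 56.2% of those above the median level. The differences ran from 0.04 for Psmc3 to 0.36 for Psmc6. Their median was 0.13 (0.17 in the pool 1 littermates and 0.11 in those of pool 2). In 5 of the 6 both Usp2-KO pools lay above both WT pools (19.8% of all genes, 26.5% of those above the median level), and Psmc3 was the exception. None passed the adjusted threshold.

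Psmc6, one of these ATPases, stood at 8.29 and 8.46 in the WT pools and at 8.70 and 8.78 in the Usp2-KO pools. The groups did not overlap, and the lower Usp2-KO pool lay above the higher WT pool by more than the 2 WT pools differed. The difference was 0.36 (SE 0.08, 95% confidence interval 0.18 to 0.55), or 28.6%, with an unadjusted p of 0.00168 and an adjusted p of 0.286 by limma. It was 0.41 in the pool 1 littermates and 0.32 in those of pool 2, and stayed between 0.28 and 0.45 when any 1 pool was left out. An exact two-sided permutation test of 2 pools against 2 gave 0.333, the smallest p that this design allows, here and for every other member whose groups do not overlap.

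Psmc2 stood at 8.45 and 8.38 in WT and at 8.66 and 8.55 in Usp2-KO kidney, without overlap. Its difference was 0.19 (SE 0.08), with an unadjusted p of 0.0373 and an adjusted p of 0.517 by limma. Psmc5 was at 8.58 and 8.57 in WT and 8.70 and 8.72 in Usp2-KO kidney, a difference of 0.14 (unadjusted p = 0.0824 by limma). The pools of each genotype lay close together in Psmc5, with an SD of 0.01 in WT and 0.02 in Usp2-KO kidney. Psmc1 differed by 0.13, and its second row on the array by 0.22. Psmc4 differed by 0.06 and Psmc3 by 0.04, and in Psmc3 the littermate pairs had opposite signs.

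The remaining base subunits are Psmd1 and Psmd2, large scaffold proteins that dock ubiquitin receptors and shuttles, and Psmd4, itself a ubiquitin receptor. Psmd1 stood at 10.81 and 10.83 in WT and at 10.93 and 10.95 in Usp2-KO kidney, a difference of 0.12 (unadjusted p = 0.12 by limma), with 0.125 and 0.115 in the littermate pairs. Psmd2 differed by 0.05. Psmd4 differed by 0.09, which came from Usp2-KO pool 1 at 9.04, while the other 3 pools lay at 8.87.

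The lid holds 8 members, of which 6 had differences above 0 and 2 below, with a median of 0.10 and a range from -0.03 to 0.21. Psmd14, Psmd12, Psmd6 and Psmd7 differed by 0.16 to 0.21 and did not overlap between the genotypes, while Psmd3, Psmd11, Psmd13 and Psmd8 differed by -0.03 to 0.04. Both Usp2-KO pools thus lay above both WT pools in 4 of the 8 (19.8% of all genes, 26.5% of those above the median level). In 1, Psmd8, they lay below (19.1% and 13.2%).

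Psmd14 is the metalloprotease of the lid, which cuts the ubiquitin chain from the substrate as it enters, and Psmd7 is its inactive partner. Psmd14 stood at 10.20 in both WT pools and at 10.39 and 10.42 in the Usp2-KO pools. The WT pools thus differed by less than 0.01, and both Usp2-KO pools lay above them. The difference was 0.21 (SE 0.07, unadjusted p = 0.0157, adjusted p = 0.426 by limma), and without any 1 pool it was between 0.19 and 0.22. Psmd7 stood at 9.71 and 9.67 in WT and at 9.84 and 9.87 in Usp2-KO kidney. Its difference was 0.16 (unadjusted p = 0.0479, adjusted p = 0.541 by limma, and unadjusted p = 0.086 with the littermate block).

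Psmd12, a scaffold subunit of the lid, was at 9.21 in both WT pools and at 9.45 and 9.37 in the Usp2-KO pools. Its difference was 0.20 (SE 0.07, unadjusted p = 0.0225, adjusted p = 0.458 by limma). Psmd6, another scaffold subunit, was at 9.47 and 9.55 in WT and 9.61 and 9.77 in Usp2-KO kidney, a difference of 0.18 (unadjusted p = 0.055 by limma). Psmd13 differed by -0.02: its WT pools were at 10.001 and 9.992, and the Usp2-KO pools lay on either side of them, at 10.13 and 9.83. Psmd8 had the lowest difference of the lid. It stood at 10.91 and 10.90 in WT and 10.86 and 10.88 in Usp2-KO kidney, a difference of -0.03 in groups that did not overlap.

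**Figure D2:**
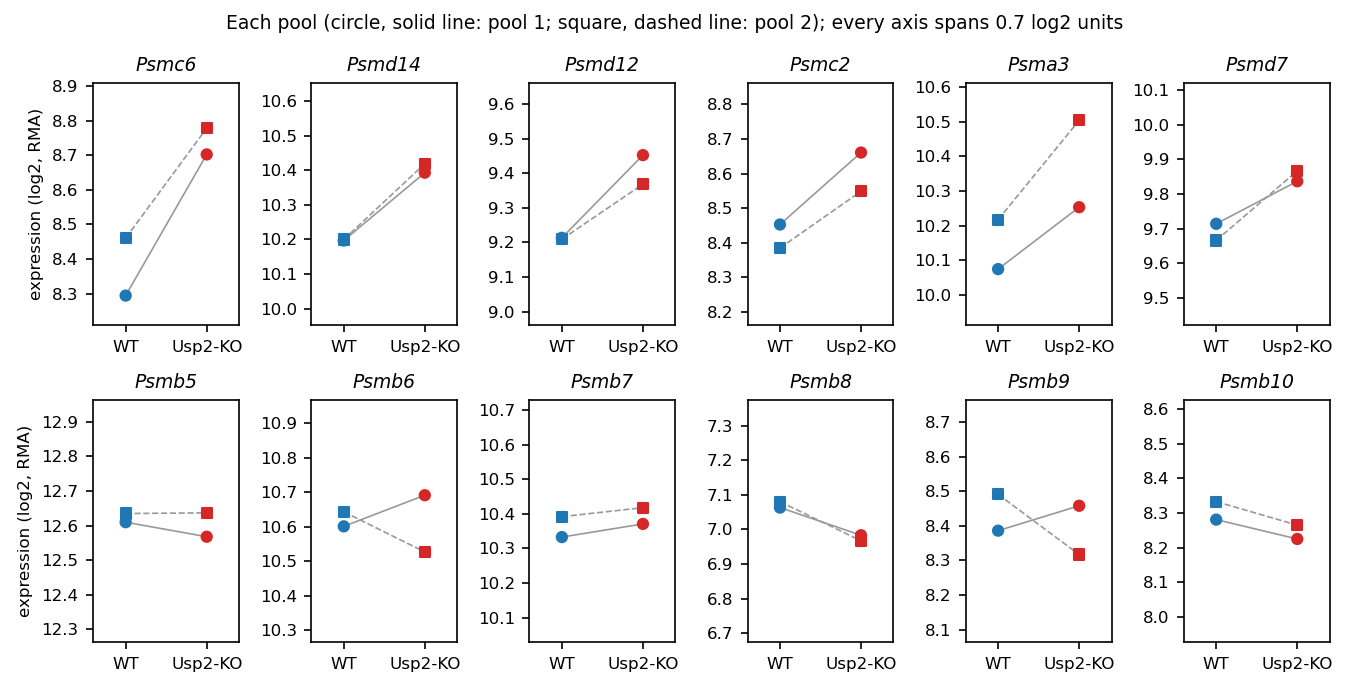
Log2 expression of 12 proteasome genes in each pool of WT (blue) and Usp2-KO (red) kidney, with littermate pools joined by lines. The upper row holds the 6 genes at an unadjusted p under 0.05, in which both Usp2-KO pools lie above both WT pools, and the lower row the constitutive catalytic subunits Psmb5, Psmb6 and Psmb7 and their inducible counterparts.

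Of the core particle, the outer and the inner ring differed in their values. All 8 alpha subunits had differences above 0, against 47.5% of all genes and 56.2% of those above the median level. Their median was 0.09 (0.10 in the littermates of either pool number). In 5 of them both Usp2-KO pools lay above both WT pools (19.8% of all genes, 26.5% of those above the median level). The 7 constitutive beta subunits had a median of -0.01, with 3 above 0 and 4 below. That median lay between -0.026 and 0.0085 when any 1 pool was left out. All 7 differences lay between -0.04 and 0.03. In 1 of the 7, Psmb3, the groups did not overlap, with Usp2-KO below (19.1% of all genes, 13.2% of those above the median level). Whether the rings differ from each other was not tested.

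Psma3 had the largest difference of the alpha ring, whose subunits form the gate of the barrel. It stood at 10.07 and 10.22 in WT and at 10.25 and 10.50 in Usp2-KO kidney. The groups did not overlap, but the lower Usp2-KO pool lay just above the higher WT pool. The difference was 0.23 (SE 0.10, unadjusted p = 0.041, adjusted p = 0.529 by limma), with 0.11 when Usp2-KO pool 2 was left out and 0.36 when Usp2-KO pool 1 was. Psma3 had 3 rows on the array, with differences of 0.22, 0.23 and 0.24.

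Psma1 was at 10.27 and 10.29 in WT and at 10.40 and 10.44 in Usp2-KO kidney, a difference of 0.15 (unadjusted p = 0.0675 by limma). Psma7 differed by 0.13, Psma4 by 0.08 and Psma2 by 0.06, each without overlap. Psma5 differed by 0.11 with opposite signs in the littermate pairs, 0.32 and -0.11, since its WT pools stood 0.35 apart. Psma6 differed by 0.03 and Psma8, the alpha subunit of germ cells, by 0.02, and in both the groups overlapped. Psma8 had a mean of 5.09 in WT and 5.11 in Usp2-KO kidney, below the array medians of 7.44 to 7.46. Its littermate pairs had opposite signs, -0.037 and 0.081. Psma4 is the 1 member on chromosome 9, where Usp2 lies, and 142 measured genes away from it.

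The catalytic beta subunits cut after different residues: Psmb5 has the chymotrypsin-like, Psmb6 the caspase-like and Psmb7 the trypsin-like activity. Psmb5 stood at 12.61 and 12.63 in WT and at 12.57 and 12.64 in Usp2-KO kidney. Psmb6 was at 10.60 and 10.64 in WT and at 10.69 and 10.53 in Usp2-KO kidney. Psmb7 was at 10.33 and 10.39 in WT and at 10.37 and 10.42 in Usp2-KO kidney. In each of these the groups overlapped, and the differences were -0.02, -0.01 and 0.03. Their 95% confidence intervals together reach from -0.19 to 0.19, which leaves room for a change of up to that size in either direction. Psmb1, a structural subunit, had the highest difference of the beta ring at 0.03 and Psmb3, another one, the lowest at -0.04.

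The inducible subunits take the places of the catalytic ones: Psmb8 that of Psmb5, Psmb9 that of Psmb6 and Psmb10 that of Psmb7. Psmb8 stood at 7.06 and 7.08 in WT and at 6.98 and 6.97 in Usp2-KO kidney, without overlap. Its difference was -0.10 (95% confidence interval -0.25 to 0.06, unadjusted p = 0.199 by limma). Psmb10 was at 8.28 and 8.33 in WT and at 8.22 and 8.27 in Usp2-KO kidney, also without overlap, a difference of -0.06. Usp2-KO lay below WT without overlap in 19.1% of all genes. Psmb9 was at 8.39 and 8.49 in WT and at 8.46 and 8.32 in Usp2-KO kidney, a difference of -0.05 with opposite signs in the littermate pairs. Set beside their constitutive counterparts, the differences were -0.10 and -0.02 for Psmb8 and Psmb5, -0.05 and -0.01 for Psmb9 and Psmb6, and -0.06 and 0.03 for Psmb10 and Psmb7. Psmb11, the beta subunit of the thymus cortex, had the widest spread of this group: 6.68 and 6.36 in WT, 6.32 and 6.47 in Usp2-KO kidney. Its difference was -0.13, and 0.04 without WT pool 1.

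Genes of MHC class I presentation and interferon signalling were set beside the inducible subunits, which they accompany in immune responses. Of 10 measured genes 7 had differences below 0 and 3 above. Above 0 were 47.5% of all genes and 56.2% of those above the median level. The median of the 10 was -0.10, and 0 had an unadjusted p under 0.05 by limma, against 9.11% of all genes. The lowest were Irf9, a part of the interferon-activated transcription factor, at -0.17 (adjusted p = 0.569 by limma), Nlrc5, an activator of MHC class I genes, at -0.14 and Stat2, the partner of Irf9, at -0.14. These moved with the pools and rows used: Irf9 was at -0.088 without WT pool 2, Stat2 at -0.066 when Usp2-KO pool 2 was left out, and Nlrc5 at -0.0855 without WT pool 1 and -0.0578 as the mean of its rows. Tap1, the peptide transporter gene that lies between Psmb8 and Psmb9 in the order of measured genes, differed by -0.07. The log2 of the summed linear levels of the 10 genes was 13.52 and 13.54 in WT and 13.47 in both Usp2-KO pools. In that sum the most abundant gene, B2m (mean log2 of 12.58 in WT), weighs most. Of 11 leukocyte markers 3 were above 0 and 8 below, where 47.5% of all genes were above 0. The log2 of their summed linear levels was 11.23 and 11.28 in WT and 11.27 and 11.20 in Usp2-KO kidney. The T cell gene Cd3e differed by -0.23 (unadjusted p = 0.00965 by limma) and was the 1 marker of the 11 with an unadjusted p under 0.05. The other T cell genes, Cd4 and Cd8a, differed by -0.065 and 0.055 with overlap, and the pan-leukocyte gene Ptprc by 0.11. The part of leukocytes in the values of the inducible subunits was not tested.

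Activators that can replace the regulatory particle were of both signs. Psme4, the large single-chain activator of the nucleus, stood at 10.59 and 10.50 in WT and at 10.63 and 10.81 in Usp2-KO kidney. Its difference was 0.18 (unadjusted p = 0.0626 by limma), of which most came from pool 2, with 0.31 against 0.05 in pool 1, and it was 0.09 without Usp2-KO pool 2. Psme3, which forms a ring of its own in the nucleus, differed by 0.10 without overlap. Psme1 and Psme2, which interferon induces and which form one mixed ring, lay on opposite sides of 0. Psme1 was at 10.04 and 10.17 in WT and 10.04 and 9.99 in Usp2-KO kidney, a difference of -0.09, and Psme2 was at 9.08 and 9.19 in WT and 9.28 and 9.26 in Usp2-KO kidney, a difference of 0.13. A further row shared by Psme2 and its copy Psme2b, which was not used, differed by 0.10. Psmf1, an inhibitor of the core particle in the test tube, differed by -0.02.

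Assembly factors were the last group. Psmd5, Psmd9 and Psmd10 escort the ATPases into the base and then leave. Psmd10, also called gankyrin, was at 8.83 and 8.84 in WT and at 8.92 and 9.11 in Usp2-KO kidney, a difference of 0.18 (unadjusted p = 0.0598 by limma) that was 0.0825 without Usp2-KO pool 2. Psmd5 was at 9.71 and 9.80 in WT and at 9.91 and 9.88 in Usp2-KO kidney, a difference of 0.14. Both were without overlap, with Usp2-KO above (19.8% of all genes), whereas Psmd9 differed by -0.01 with overlap.

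Psmg1 to Psmg4 help to build the alpha ring. Their median was 0.01, and its sign turned with the pools used: it was -0.0478 without Usp2-KO pool 1, -0.01 without WT pool 2 and 0.095 when Usp2-KO pool 2 was left out. Psmg2 was at 8.90 and 9.01 in WT and at 9.04 and 9.06 in Usp2-KO kidney, a difference of 0.10. Psmg3 was at 6.98 and 6.91 in WT and at 6.87 and 6.88 in Usp2-KO kidney, a difference of -0.06. Psmg1 differed by 0.04 and Psmg4 by -0.02. The genes that only share the name were at 0.04 for Psmc3ip and -0.05 for Psme3ip1, both with overlap.

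Several members have near-identical copies in the genome, and the array's rows can share probes with them. Of the 50 genes 5 had more than 1 row: Psma3, Psma5, Psmb3, Psmc1 and Psmd2. The rows of each had the same sign. Psma5 differed by 0.11 in the row used and by 0.18 in the other, Psmb3 by -0.04 and -0.08, and Psmd2 by 0.05 and 0.09. Which copy a row measures is not given in the sources used here, so the values of these 5 genes are uncertain in that respect.

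Genes that work with the proteasome but lie outside this naming were of the same range. There were 28 measured genes in 3 lists (associated subunits and regulators, control of proteasome transcription, and ubiquitin shuttles with the segregase and ubiquitin-activating enzymes). Of these, 26 had differences above 0, with a median of 0.09. Above 0 were 47.5% of all genes and 56.2% of those above the median level. At an unadjusted p under 0.05, 3 were higher and 0 lower, against 5.22% and 3.88% of all genes, and 0 passed the adjusted threshold. The count of genes higher fell without any 1 pool, where only 1 array is left in a group. In 14 of the 28 both Usp2-KO pools lay above both WT pools and in 0 below. Of all genes 19.8% and 19.1% did so, and of those above the median level 26.5% and 13.2%.

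Sem1, the small subunit that ties the lid together, stood at 8.004 and 7.962 in WT and at 8.36 and 8.11 in Usp2-KO kidney. The groups did not overlap, and the difference was 0.25 (SE 0.09, unadjusted p = 0.0219, adjusted p = 0.454 by limma). It was 0.36 in the pool 1 littermates and 0.15 in those of pool 2, and 0.13 without Usp2-KO pool 1. Zfand5, a zinc finger protein that binds the proteasome and stimulates it, was at 8.60 and 8.64 in WT and at 8.86 and 8.80 in Usp2-KO kidney, a difference of 0.21 (unadjusted p = 0.0166 by limma). Uba6, an enzyme that activates ubiquitin, differed by 0.21 as well (unadjusted p = 0.0223 by limma).

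The deubiquitinases that sit on the regulatory particle are Usp14 and Uchl5. Usp14 was at 8.93 and 9.02 in WT and at 9.08 and 9.07 in Usp2-KO kidney, a difference of 0.10. Uchl5 was at 6.46 and 6.73 in WT and at 6.75 and 6.84 in Usp2-KO kidney, a difference of 0.20 (unadjusted p = 0.0669 by limma) that was 0.07 without WT pool 1. Pomp, the factor that completes the beta ring, was at 9.24 and 9.21 in WT and at 9.35 and 9.31 in Usp2-KO kidney, a difference of 0.10. Adrm1 and Ddi2 had no row with 1 symbol of their own and were not analysed here.

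Nfe2l1 itself hardly differed, at 10.88 and 10.84 in WT and 10.89 and 10.86 in Usp2-KO kidney, a difference of 0.02 (95% confidence interval -0.14 to 0.18). The sign of this value turned with the scaling, to -0.0011 after repeated quantile normalization. Ngly1, the enzyme that removes sugars from the Nfe2l1 protein and is needed for its activity, differed by 0.16 without overlap (unadjusted p = 0.0617 by limma). Nfe2l1 works largely through the stability and processing of its protein, which these arrays do not measure.

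**Figure D3:**
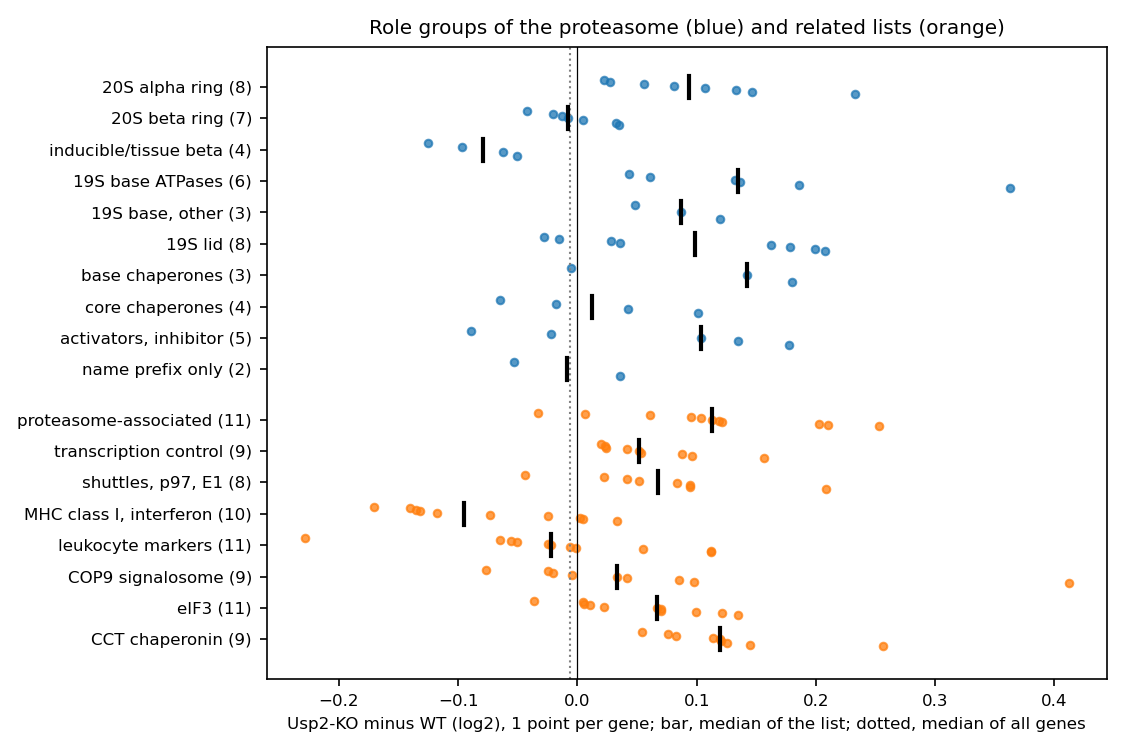
Difference between Usp2-KO and WT kidney (log2) for each gene of the proteasome role groups (blue) and of related lists (orange), with the number of genes in brackets, the median of each list as a black bar and the median of all genes as a dotted line. The base ATPases, with a median of 0.13, and the inducible beta subunits, with -0.08, lie farthest apart among the groups of at least 4 proteasome genes, and the chaperonin list reaches 0.12.

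Other large complexes of the cytosol gave a scale for these values. The lid shares its architecture with the COP9 signalosome, which removes Nedd8 from cullin ligases, and with the translation factor eIF3. The 9 genes of the signalosome had a median of 0.03, with Cops2 at 0.41 (unadjusted p = 0.00912, adjusted p = 0.383 by limma, and 0.00981 with the littermate block; 0.235 when Usp2-KO pool 2 was left out, 0.589 when Usp2-KO pool 1 was), and the 11 genes of eIF3 one of 0.07. The 9 genes of the chaperonin CCT, which folds actin and tubulin, had differences above 0 in 9 of 9, against 47.5% of all genes. Their median was 0.12, with Cct8 at 0.26 (adjusted p = 0.34 by limma). The medians of the ATPases and the lid, 0.13 and 0.10, lay near that of CCT and above those of the signalosome and eIF3. These differences between complexes were not tested.

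Gene length and level moved with the differences. Over all 19852 genes with a known length in the genome, longer genes had higher differences (Spearman rho 0.19), and over the 50 members rho was 0.33. When all genes were put in 4 equal bins by length, the medians of the members were -0.04 for the 12 in the bin of shortest genes, 0.08 for the 20 in the next, 0.03 for the 13 in the next and 0.12 for the 5 in the bin of longest genes. The medians of all genes in those bins were -0.03, -0.02, 0.01 and 0.02. The inducible and thymic beta genes were short, with a median of 3754 bases against 11930 for all members and 10777 for the ATPases. With the mean log2 level, rho was 0.20 over all genes and 0.06 over the members. These are correlations across genes of the same 4 arrays, which are not independent replicates, and the part of length or level in the results was not tested.

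**Figure D4:**
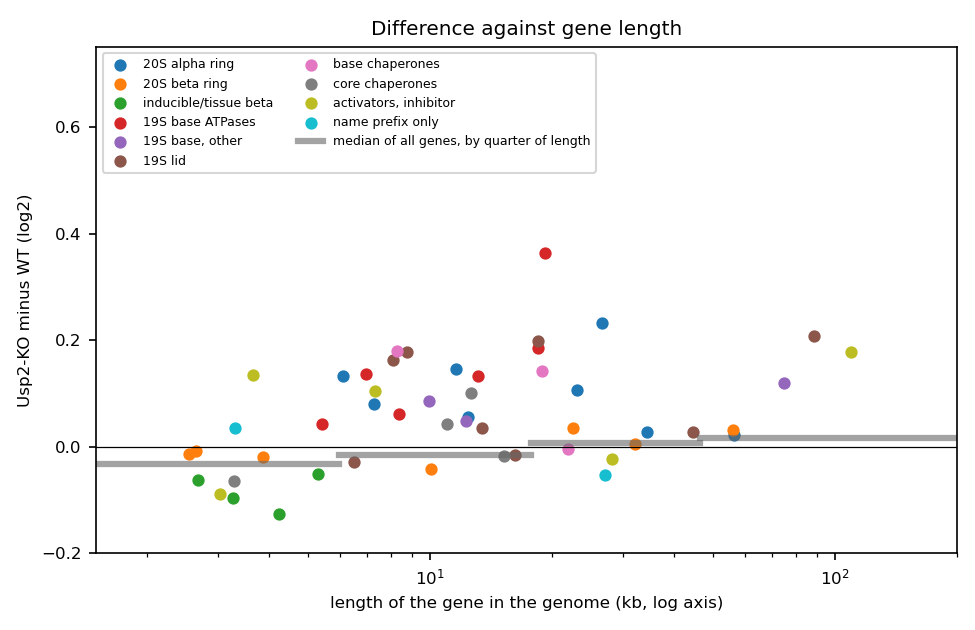
Difference between Usp2-KO and WT kidney (log2) against the genomic length of each gene (kilobases, log axis) for the 50 members, coloured by role, with the median of all genes in each of 4 bins of length as grey bars. The inducible beta genes lie at the short end below 0. Above 0 lie 8 of the 10 longest members and 34 of all 50.

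The littermate comparisons did not give the same picture in every group. The median of all members was 0.08 in the pool 1 littermates and 0.03 in those of pool 2, against 0.01 and -0.01 for all genes. The beta ring had 0.04 and -0.03, and the lid 0.13 and 0.07. Across the 50 members, the differences of the littermate pairs correlated with a Spearman rho of 0.37, against 0.10 across all genes. For the 4 adipocyte markers measured, the log2 of the summed linear levels was 9.31 and 9.26 in the WT pools. It was 8.71 in Usp2-KO pool 1 and 9.17 in Usp2-KO pool 2. For the 4 pancreatic markers it was 8.55 and 8.51 in WT against 8.38 and 8.37 in Usp2-KO kidney. Each of these 4 genes lay below the array medians of 7.44 to 7.46 in every pool. Whether such cells were in the samples, and their part in the values of the proteasome genes, was not tested.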

How the data were processed

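Each of the 4 arrays measured 1 pool of kidney RNA on an Affymetrix whole-transcript array from 300 ng of total RNA, per the labels' protocols. The deposited log2 values are RMA expression estimates computed by the authors, as the submitters' processing notes state. The method corrects background, equalises the distributions of the arrays and summarises probe sets. Its software and version, and any removal of rows before deposit, are not given in the sources used here. Equalised distributions would hide a change shared by all genes.

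Of 28270 rows, 21780 had 1 gene symbol in the platform's annotation, 1617 had several and 4873 had none listed. The row of highest mean per symbol gave 19934 genes. The difference between genotypes was estimated in R 4.3.3 by limma 3.58.1 (a linear model with moderated variances, prior of 6.87 degrees of freedom), with Benjamini-Hochberg adjustment over all genes. The fit was tested on simulated data. Each pool was left out in turn, and further alternatives were an intensity trend, a robust prior, the littermate block, a minimum level (a mean log2 of 6, or the median gene), other treatment of rows, median centring, repeated quantile normalization and a threshold of 0.10. Pools of 1 number are littermates per the series' design text. Their deviations from the group means correlated at -0.121 across genes.

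Members, role groups, lists and tests were chosen with earlier results of these data known. The rule named the catalytic subunits and their inducible counterparts, members with an unadjusted p under 0.05, the extremes of each role group, Adrm1, Sem1, Pomp, Usp14, Uchl5, Nfe2l1 and Ddi2, and in each related list up to 3 genes of smallest p. Other genes were named after their values were seen. Gene lengths and order came from RefSeq on GRCm38.p6, matched by gene identifier. Figures were drawn with matplotlib 3.10.9.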

Additional observations from a re-analysis of the deposited data

How the results depend on the processing

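No member passed the adjusted threshold under any alternative except the littermate block, with 1 (Psmc6, adjusted p = 0.0318). The block changed no other member's call at the adjusted threshold, and at the unadjusted one it left 5 of 6, without Psmd7. Among the genes of the related and marker lists, it brought Cops2, Adipoq and Retn past the threshold. Of all genes 153 passed with it. With the pool numbers crossed, a block chosen after the data were seen, 0 members and 1 gene in all passed. The adjusted p of Psmc6 over all alternatives was between 0.0318 and 0.679. Members higher at an unadjusted p under 0.05 by limma numbered 10 with an intensity trend, where 6.12% of all genes were higher. They numbered 10 of 45 in a fit of only the genes above the median level, where 8.8% of those genes were higher. After repeated quantile normalization they numbered 3, with 5.03% of all genes, against 6 and 5.22% in the main fit. Members higher were fewer without WT pool 1, WT pool 2 or Usp2-KO pool 2, and the share of all genes was smaller too. Related genes higher were fewer without any 1 pool. Members whose groups did not overlap with Usp2-KO below numbered 5 in the main fit and 3 among genes above the median level. Those with Usp2-KO above numbered 22 in both. Without 1 pool both counts were larger, 8 to 15 below and 23 to 32 above, since 3 arrays overlap less readily. No share of all genes without 1 pool is set beside these counts, so they show no shift toward either direction. The alpha ring's median was 0.11 with either filter on level and with the mean of all rows, 0.13 with every row on its own and 0.0691 after repeated quantile normalization, which put the base chaperones at 0.12 and the activators at 0.0808. The inducible group was at -0.0565 among genes above the median level, which leaves out Psmb8 and Psmb11. Without 1 pool, medians ranged from 0.0335 to 0.0848 for all members, 0.075 to 0.0945 for the alpha ring, -0.0958 to -0.062 for the inducible group, 0.0825 to 0.1875 for the base chaperones 0.062 to 0.125 for the activators, -0.026 to 0.0085 for the beta ring, 0.029 to 0.1115 for the base subunits other than ATPases and -0.0478 to 0.095 for the core chaperones, which were at -0.0116 after repeated quantile normalization. Single genes were followed through the alternatives only where the rule named them. Among those members, signs turned without 1 pool for Psmb5 (-0.0545 to 0.0145), Psmb6 (-0.095 to 0.069) and Psmb9 (-0.12 to 0.0195). So did those of Psmb1 (-0.018 to 0.087), Psmd9 (-0.0635 to 0.0535) and Psmb11 (-0.29 to 0.036). The sign of Nfe2l1 turned (-0.0011) after repeated quantile normalization. Other members, such as Psmc3 and Psma5 with opposite signs in the littermate pairs, were not followed in this way. Where 1 array is left in a group, it is taken to vary like the others. With 2 pools per genotype, the median extent to either side of the members' 95% confidence intervals was 0.168.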
